A study of Mus musculus with 12 samples.

Results

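The genes described here encode voltage-gated potassium, sodium and calcium channels and their accessory subunits in cardiomyocytes isolated from newborn mouse hearts. They were taken by name: every protein-coding gene whose symbol begins with Kcn, Hcn or Cacn, or is Scn followed by digits and a final a or b. The rule found 138 of the 52336 genes in the deposited table. It also takes in genes that are not voltage-gated channels. Among these are the inward rectifiers (Kcnj), the leak channels (Kcnk) and the channels opened by calcium or sodium (Kcnn, Kcnt). The regulators of glutamate receptors among the Cacng genes are others.

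RNA was sequenced from 4 groups of wild type pups, 3 libraries each. NAC MI and NAC sham pups were injected from postnatal day 0 to 1 with N-acetylcysteine (NAC), a thiol antioxidant, at a dose the labels call high, in saline buffered with 25 mM HEPES and 140 mM NaCl. Saline MI and saline sham pups were injected with saline. On day 2, MI pups had the left anterior descending coronary artery occluded (myocardial infarction, MI) and sham pups had sham surgery. Ventricles collected on day 3 were pooled and digested, and cells were selected with a neonatal cardiomyocyte isolation kit. The series text names whole ventricles as the source, and the sample labels name the left ventricle. Because cells were pooled and replicates are not said to come from separate animals, p-values measure the spread between libraries.

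The beat of the heart is driven by these channels in turn. Sodium channels start the action potential, L-type calcium channels hold it up and trigger contraction, and potassium channels end it and set the resting potential. HCN channels carry the pacemaker current. In the newborn mouse ventricle the set is in transition: T-type calcium channels and other fetal forms are lost, and the fast potassium currents of the adult mouse are gained, in the weeks after birth.

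The libraries held 14353842 to 25118341 reads. All 14 cardiomyocyte markers had reads in every group, with summed levels of 249503 to 700219 normalized read counts per library. The lowest of these sums was in NAC sham 2, and the next was 373182 in saline sham 2. Other cells were present. The summed level of 15 macrophage and monocyte markers was 1113 to 12452 in NAC MI, 9620 to 14271 in saline MI, 1373 to 22078 in NAC sham and 849 to 1410 in saline sham. NAC sham 2 (22078) and NAC MI 2 (1113) stood apart from the other libraries of their groups in this sum. Mitochondrial transcripts took 7.65 to 30.2% of reads. Sample titles carry prefixes of unstated meaning that divide the libraries too. Among MI libraries, R235 marks replicates 1 and 2 of NAC MI with replicate 3 of saline MI, and R230 marks replicate 3 of NAC MI with replicates 1 and 2 of saline MI. Among sham libraries, R207 marks NAC sham 2 with saline sham 1 and 2, R219 marks saline sham 3 only, and NAC sham 1 and 3 bear no prefix. MI and sham never share one, so the effects of surgery and of whatever the prefix marks cannot be told apart. In these bulk libraries, fewer cells of a type and less RNA per cell cannot be told apart either.

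Of the 138 channel genes, 75 reached the mean of 10 normalized read counts required for testing. Another 57 had 1 to 121 reads in all 12 libraries together, and 6 had none: Kcna10, Kcnh8, Kcnk15, Kcnk16, Kcns2 and Kcnv1. Among the genes below the limit were Kcnma1, the pore of the large-conductance calcium-activated channel (52 reads), Scn4b, a sodium channel beta subunit (86 reads), and Scn1a, a pore known from neurons (22 reads). Channel genes took 74.8 to 168 of every 100000 reads in NAC MI, 71.9 to 89.0 in saline MI, 99.7 to 210 in NAC sham and 75.3 to 114 in saline sham. The highest values were those of NAC sham 3 (210), NAC sham 1 (189) and NAC MI 2 (168), and NAC MI 3 (74.8) and NAC sham 2 (99.7) were within the range of the saline libraries.

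Reads were spread over many families. The pore-forming calcium channel genes (Cacna1) held 16.8% of all channel reads, the pores of the Kcna to Kcnd, Kcnf, Kcng, Kcns and Kcnv genes 15.9%, and their partners (Kcne, Kcnip and Kcnab) 11.8%. The sodium channel pores held 11.1%, the inward rectifiers 10.5%, the leak channels 7.61% and the Kcnh genes 6.77%. The rest lay between 5.74% for the calcium channel beta subunits and 0.0281% for Kcnrg. Of the 10 genes for sodium channel pores, 6 were tested. Averaged over the libraries, Scn7a had 24.6 normalized read counts per kb of exon and Scn10a 9.58, and Scn4a, Scn3a and Scn2a had 2.89 or less.

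On the same scale, the highest level was that of Kcng2 (562), a subunit that makes no channel alone and modifies others. Kcne1 (337) and Kcnq1 (105) encode the beta and pore subunits of the slow delayed rectifier, and Kcnh2 (265) the pore of the rapid one. Kcna5 (249.7) encodes a delayed rectifier of the mouse ventricle, Kcnk3 (237) an acid-sensitive leak channel, and Kcnip2 (226) the partner of the transient outward channels. The pores of the transient outward current were far lower, at 4.73 for Kcnd2, 3.76 for Kcnd3 and 11.8 for Kcna4. Exon length joins all annotated exons of a gene, whichever transcript is expressed, so levels of different genes compare only roughly. Kcnj11 (161) and Kcnj8 (121) encode the pores of ATP-sensitive channels. Kcnj5 (107) and Kcnj3 (16.4) encode the subunits of the acetylcholine-activated channel, and Kcnj12 (65.5) and Kcnj2 (53.9) those of the classical inward rectifier. For calcium entry, Cacna1g (101) and Cacna1h (32.6), the T-type pores, stood beside Cacna1c (83.9), the L-type pore of the ventricle, and Cacna1d (11.4), the L-type pore of atria and nodes. Of the pacemaker channels, Hcn2 had 40.9 and Hcn4 28.8.

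**Figure D1:**
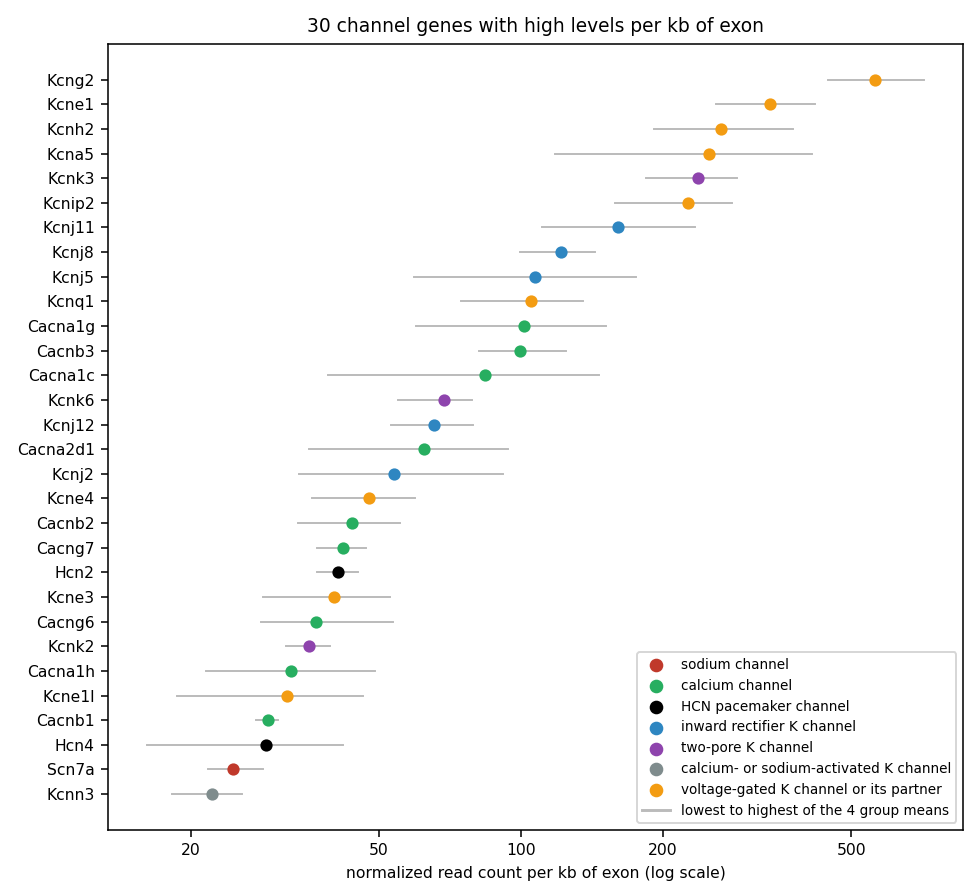
Mean normalized read count per kb of exon over 12 libraries (log axis) for 30 channel genes with high levels, coloured by class; the grey line spans the 4 group means. Kcng2 leads at 562, and wide spans are those of Kcna5, Cacna1c and Kcnj5.

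MI was compared with sham to see what the infarct changed a day later, in saline pups, in NAC pups and averaged over both. Of the 75 tested channel genes 1 fell in the averaged comparison, and of those named below none passed. Cacna1c, Kcnh2, Kcnq1, Kcne1 and Kcnk3, which carry main currents of the cardiomyocyte, did not pass, with averaged log2 differences from -0.11 (Cacna1c) to 0.07 (Kcnq1). Averaged over both treatments, pores of sodium channels and of the Kcna to Kcnv genes were more often lower than higher. Of the 13 tested pores of the Kcna to Kcnv genes, 7 were higher in saline pups and 3 in NAC pups. A small group that included Kcnab2 and Kcnk13 was higher without passing.

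The background of calls differed between comparisons. In the averaged comparison limma called 411 genes, 2.74% of those tested, and 1 of 75 channel genes. In saline pups it called 129 genes (0.86%) and in NAC pups 19 (0.127%), with 0 channel genes in each, where 7 channel genes each (9.33%) had an unadjusted p under 0.05, beside 11.4% and 9.996% of all genes. There edgeR called 0 and 0 channel genes (0.607% and 0.187% of all genes). DESeq2 called 1 channel gene in saline pups (Kcnab2, with 3.09% of all genes) and 2 in NAC pups (Scn3a among them, with 1.61%). In the averaged comparison edgeR called 1 channel gene and 2.8% of all genes. DESeq2 called 7 of 75 (9.33%), with Scn3a, Kcna5, Kcna6, Cacnb4 and Kcnk5 among them, near its 8.16% of all genes. The 75 genes had a median log2 difference of -0.06 (30 higher), against -0.003 over all genes. The sign of that median rested on single libraries, since it was 0.06 without NAC MI 3, 0.07 without NAC sham 3 and -0.28 without NAC sham 2. Genes among the 5 with the smallest averaged p-values on each side are described first.

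Kcna5 (ENSMUSG00000045534, chromosome 6, 126532551 to 126535412 on GRCm38), which carries part of the slowly inactivating potassium current of adult mouse ventricle, had normalized read counts of 592, 208 and 214 in NAC MI, 610.2, 807 and 535 in saline MI, 655, 942 and 462 in NAC sham and 1084, 1510 and 954 in saline sham. Saline MI lay wholly below saline sham, while NAC MI 1 reached into the range of NAC sham. The averaged log2 difference was -0.999 (SE 0.27, adjusted p = 0.0635 in limma). Scn3a, a sodium channel pore known from embryonic neurons, was low everywhere, at 17.8, 6.32 and 0 in NAC MI, 22.4, 15.6 and 19.5 in saline MI, 45.6, 63.9 and 34.7 in NAC sham and 31.2, 48.6 and 33.3 in saline sham. It was 1 of 2 channel genes with all 6 MI libraries below all 6 sham libraries, a pattern that 2.21% of all genes showed in either direction. Its log2 difference was -2.07 (SE 0.58, adjusted p = 0.0739). Kcna6, a delayed rectifier pore, had 17.8, 15.2 and 13.6 in NAC MI, 30.3, 37.9 and 21.4 in saline MI, 29.2, 59.6 and 41.9 in NAC sham and 41.3, 36.7 and 48.8 in saline sham, with -0.95 (adjusted p = 0.0919); 39.6% of its exon bases lie opposite those of the antisense gene Gm26673, which had no reads. Cacnb4, a calcium channel beta subunit, had 17.8, 7.58 and 17 in NAC MI, 13.5, 3.71 and 10.7 in saline MI, 32.7, 45.5 and 28.5 in NAC sham and 15.2, 38.7 and 19 in saline sham, with -1.34 (adjusted p = 0.104).

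On the higher side, Kcnk5, an alkali-activated leak channel, had 38.5, 87.2 and 31.7 in NAC MI, 59.4, 32.7 and 35.1 in saline MI, 22.2, 25.4 and 33 in NAC sham and 18.1, 20.8 and 3.57 in saline sham, and a log2 difference of 1.29 (adjusted p = 0.122). Kcne4, an inhibitory beta subunit, had 0.53 (adjusted p = 0.288).

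Kcnab2, a cytosolic beta subunit, had 179, 44.2 and 83.7 in NAC MI, 201, 137 and 210.5 in saline MI, 29.2, 229 and 44.5 in NAC sham and 48.6, 47.6 and 28.6 in saline sham. Kcnk13, a leak channel known from microglia and macrophages, had 40.4, 2.53 and 26 in NAC MI, 62.8, 29 and 51.7 in saline MI, 2.34, 65.7 and 4.45 in NAC sham and 6.52, 5.95 and 9.52 in saline sham. Both were high in NAC sham 2 and low in NAC MI 2, the libraries with the most and fewest macrophage markers of their groups, and so was Kcnn4, the intermediate-conductance calcium-activated channel of blood cells, in NAC sham 2 (43.3, 123 and 20.5 in the 3 NAC sham libraries). In saline pups, where the 15 macrophage markers were all higher after MI, the log2 differences were 2.12 for Kcnab2, 2.51 for Kcnk13 and 1.14 for Kcnn4 (adjusted p = 0.198, 0.398 and 0.493). Averaged, Kcnab2 stood at 1.25 and Kcnk13 at 1.54 (adjusted p = 0.163 and 0.276). Without NAC sham 2, Kcnab2 had an averaged log2 difference of 1.69 and passed (adjusted p = 0.0115), 1 of 2 channel genes called in that setting beside 4.08% of all genes. The part of macrophages in these values was not tested.

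Kcnj8, the ATP-sensitive pore typical of pericytes and smooth muscle, had 309.7, 138 and 312 in NAC MI, 258, 263 and 281 in saline MI, 346, 377 and 328 in NAC sham and 317, 283 and 499 in saline sham. MI was below sham in both treatments taken singly, and the averaged log2 difference was -0.48 (adjusted p = 0.229). Kcnj11, the pore of the same kind of channel in cardiomyocytes, stood at 0.02 (adjusted p = 0.986). Kcnmb1, the smooth muscle beta subunit of the large-conductance channel, stood at -0.43 (adjusted p = 0.618). Summed markers of pericytes and smooth muscle were also lower after MI without overlap, at 23620 to 26820 in NAC MI, 24509 to 27696 in saline MI, 29125 to 36091 in NAC sham and 30934 to 37298 in saline sham, with none of the 11 markers at 0 in a group. Of the 10 tested ones 9 were lower and Vtn, Rgs5 and Notch3 fell, where 2.74% of all genes were called. The part of these cells in the values of Kcnj8 was not tested.

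**Figure D2:**
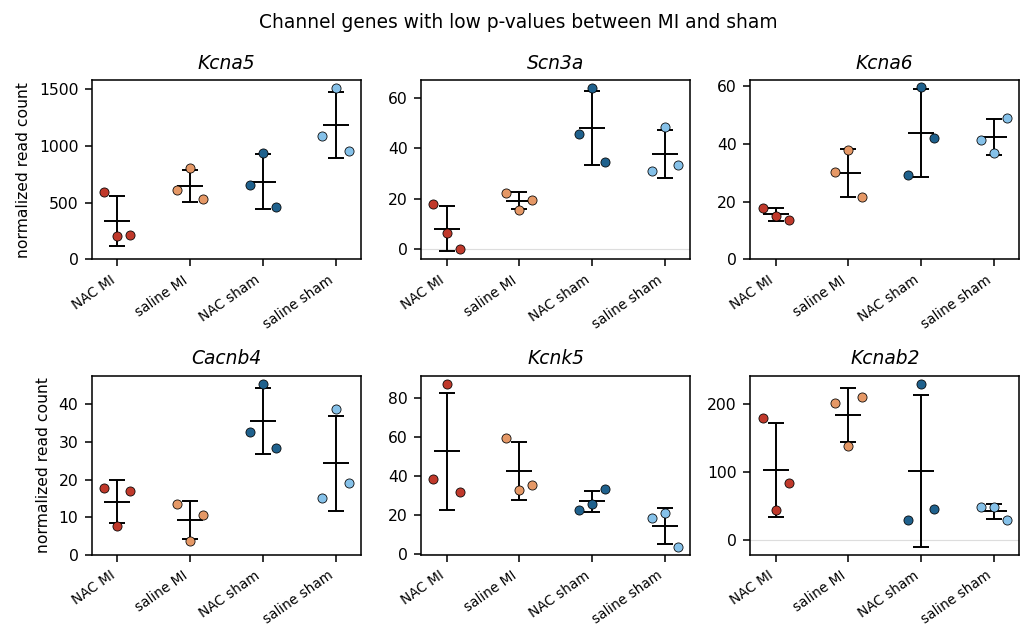
Normalized read counts of 6 channel genes in each library (points), with group mean and SD (lines), in NAC MI, saline MI, NAC sham and saline sham. For Scn3a all MI points lie below all sham points, and for Kcnab2 NAC sham 2 (229) stands above the other sham libraries.

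By family, all 6 tested sodium channel pores were lower after MI averaged over treatments (median log2 -0.40), and 9 of 13 pores of the Kcna to Kcnv genes were lower (median -0.098). With TMM scaling in edgeR, 1 sodium channel pore was higher, and on the CPM scale (counts relative to the library total) all 6 were lower. On that scale the median of all tested genes moved to -0.17, so CPM differences are read against it. The 6 Cacna1 genes divided into 2 higher and 4 lower, the 7 inward rectifiers into 3 and 4, and the 6 leak channels into 4 and 2. In saline pups 5 channel genes were wholly above and 8 wholly below sham, and in NAC pups 1 above and 10 below. Those 13 and 11 of 75 compare with 18.6% and 19% of all genes.

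A further setting left out NAC sham 2, NAC MI 2 and saline sham 3. The NAC libraries left out stood apart from their groups in macrophage markers. Saline sham 3 had 27.7% mitochondrial transcripts, where saline sham 1 had 7.65%, the lowest of all libraries. Saline sham 1 was kept, as was saline sham 2, whose cardiomyocyte sum (373182) was the next to lowest. These measures alone therefore do not single out the libraries left out. Those libraries had the lowest quality weights in limma, at 0.250 (NAC sham 2), 0.268 (saline sham 3) and 0.451 (NAC MI 2). A weight is low where a library lies far from its group in these same values. Leaving such libraries out lowers the spread by the choice itself, so the calls below are no separate support. In this setting 8 of 75 channel genes (10.7%) passed in the averaged comparison, fewer in share than the 14.6% of all genes. Among them were Kcnj2, Kcnk7, Cacna1c and Scn10a (lower) and Kcnk13 and Kcnab2 (higher). In that setting 55 of 75 channel genes were lower, among them all 6 Cacna1 genes and all 7 inward rectifiers. In NAC pups 10 of 75 (13.3%) passed, beside 3.83% of all genes, and 8 of them were lower, with Kcnj5, Kcnj2, Cacna1c, Kcnj11, Kcnh2 and Kcng2 among those 8.

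NAC was compared with saline to see what the antioxidant changed in uninjured and in injured hearts. No channel gene passed. The pores of the calcium, sodium and pacemaker channels were nonetheless mostly at higher levels with NAC, and several potassium channel partners at lower levels. Among genes with the smallest p-values, Cacna2d2, Cacna2d1, Kcnj2 and Cacna1c were higher and Kcna5 lower. The libraries did not contribute alike: for Cacna1c NAC sham 2 and NAC MI 3 were close to saline. For Cacna2d2 NAC sham 2 (116) was far above saline sham (13.9 to 44.9), while NAC MI 3 (56.5) was nearer to saline MI (29.2 to 47.5).

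Cacna2d2 (ENSMUSG00000010066, chromosome 9, 107399612 to 107529343) and Cacna2d1 (ENSMUSG00000040118, chromosome 5, 15934691 to 16374511) encode the extracellular auxiliary subunits that bring calcium channels to the surface, Cacna2d1 being the main one of the heart. Cacna2d2 had 99.5, 96 and 56.5 in NAC MI, 29.2, 47.5 and 43.9 in saline MI, 133, 116 and 141 in NAC sham and 44.9, 13.9 and 42.8 in saline sham. Every NAC library was above every saline library, which no other channel gene showed and 0.84% of all genes did in either direction. The averaged log2 difference was 1.55 (SE 0.31, adjusted p = 0.168 in limma; unadjusted p = 0.000217, 18th smallest of 14996). Cacna2d1 had 876, 1531 and 608 in NAC MI, 386, 264 and 675 in saline MI, 1358, 722 and 1416 in NAC sham and 489, 571 and 399 in saline sham, with NAC MI 3 within the range of saline MI. Its log2 difference was 1.2 (SE 0.27, adjusted p = 0.172).

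Scn10a, a sodium channel pore of sensory neurons that is also read at low level in heart, had 77, 167 and 61.1 in NAC MI, 29.2, 26 and 29.2 in saline MI, 127, 30.7 and 192 in NAC sham and 36.2, 46.6 and 94 in saline sham, with a log2 difference of 1.21 (adjusted p = 0.247). Cacna1c (ENSMUSG00000051331, chromosome 6, 118587240 to 119196418) had 1900, 3685 and 1118 in NAC MI, 726, 814 and 1322 in saline MI, 4234, 1062 and 4000 in NAC sham and 1013, 813 and 658 in saline sham. NAC sham 1 and 3 were over 3 times as high as NAC sham 2. The log2 difference was 1.40 (SE 0.36, adjusted p = 0.181).

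Kcnj2 (ENSMUSG00000041695, chromosome 11, 111066164 to 111076821), the main inward rectifier of the ventricle, had 238, 400.4 and 248 in NAC MI, 185, 140.4 and 227 in saline MI, 661, 269 and 567 in NAC sham and 194, 245 and 145 in saline sham, and a log2 difference of 0.97 (SE 0.24, adjusted p = 0.178). Each treatment contrast taken singly had NAC wholly above saline for this gene. Kcnj3 had 99.5, 178 and 41.8 in NAC MI, 22.4, 21.5 and 45.8 in saline MI, 171, 15.8 and 316 in NAC sham and 28.3, 59.5 and 28.6 in saline sham, and Kcnj5 479.5, 772 and 314 in NAC MI, 304, 409 and 449 in saline MI, 1064, 218.96 and 1177 in NAC sham and 278, 212 and 344 in saline sham. In both, NAC sham 2 was the lowest or next to lowest library of all 12, and the log2 differences were 1.51 and 0.80 (adjusted p = 0.28 and 0.321). Of Kcnj3, 31.1% of exon bases lie opposite the noncoding gene Gm26794, and strand use in the counting is not given. Hcn4, the main pacemaker channel, had 352, 326 and 93.8 in NAC MI, 92, 116 and 168 in saline MI, 262, 121 and 286 in NAC sham and 84.1, 73.4 and 139 in saline sham (log2 0.99, adjusted p = 0.244). Kcna4, a transient outward pore, stood at 1.16 and Kcnq5, a relative of Kcnq1, at 1.23 (adjusted p = 0.209 for both).

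On the lower side, Kcna5, whose library values are given above, averaged 338 ± 220.0 in NAC MI, 651 ± 140.3 in saline MI, 687 ± 242 in NAC sham and 1183 ± 291 in saline sham (SD, n = 3 each). The log2 difference was -0.96 (SE 0.27, adjusted p = 0.196), and every NAC sham library was below every saline sham one. Cacnb3, a calcium channel beta subunit, stood at -0.42, Kcnip2 at -0.55 and Kcne1l, a beta subunit of the Kcne family, at -1.16 (adjusted p = 0.267, 0.353 and 0.336).

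**Figure D3:**
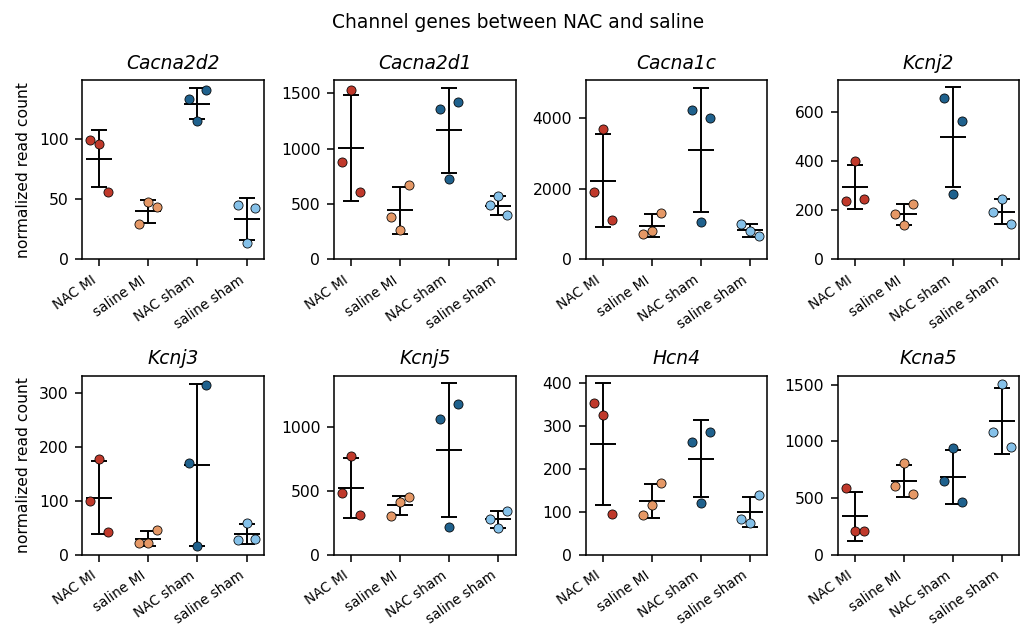
Normalized read counts of 8 channel genes in each library (points), with group mean and SD (lines), in NAC MI, saline MI, NAC sham and saline sham. For Cacna2d2 all NAC points lie above all saline points, while for Cacna1c, Kcnj3 and Kcnj5 NAC sham 2 lies apart from NAC sham 1 and 3.

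Limma called 0 of 14996 genes (0%) between NAC and saline after sham surgery, 0 (0%) after MI and 0 (0%) averaged, where edgeR called 0 in each and DESeq2 called 47, 11 and 439 (0.313%, 0.0734% and 2.93%). Unadjusted p was under 0.05 for 13, 13 and 20 of the 75 channel genes in these comparisons, that is 17.3%, 17.3% and 26.7%, against 5.89%, 9.22% and 15.5% of all genes. For channel genes edgeR called 0 in each, and DESeq2 called 2 (Cacna2d2 and Cacna1c) after sham surgery, 0 after MI and 11 averaged. Of those 11, 10 were higher, with Cacna2d2, Cacna1c, Cacna2d1, Kcnj2, Kcnj3, Kcna4, Scn10a, Kcnq5 and Hcn4 among them. Without NAC sham 2, limma called 3 of 75 after sham surgery (Kcnj5, Cacna1c and Kcnj2), beside 0.533% of all genes. It called 12 of 75 averaged (1.67% of all genes), with Cacna1c first (log2 1.72, adjusted p = 0.0112). All were higher. That setting keeps only NAC sham 1 and 3, whose titles bear no prefix and share none with saline sham. In sham hearts NAC therefore cannot be told apart there from what the titles mark.

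NAC sham 2 held the most macrophage markers and the least cardiomyocyte markers of all libraries. Its cardiomyocyte sum of 249503 compares with 659273 and 652813 in NAC sham 1 and 3, and 373182 to 601741 in saline sham. NAC MI 3, which lay near saline for Cacna1c and Cacna2d1, had 534968, against 545683 and 700219 in NAC MI 1 and 2 and 471933 to 674235 in saline MI. Other markers differed between NAC and saline too, averaged over surgeries. All 6 red cell markers were lower (median log2 -1.32), 9 of 10 endothelial markers were lower (-0.33) and 7 of 8 epicardial markers higher (0.66). The epicardial sum was 19392 in NAC MI 2, against 4844 and 4970 in NAC MI 1 and 3 and 4461 to 4916 in saline MI. The 15 macrophage markers were all higher with NAC after sham surgery (1.68) and all lower after MI (-1.33). Their sum was 22078 in NAC sham 2, against 1802 and 1373 in NAC sham 1 and 3. It was 1113 in NAC MI 2, while NAC MI 1 and 3 (12452 and 10668) lay within the range of saline MI (9620 to 14271). None of these lists had a marker at 0 in a group. Of 8 tested atrial and conduction markers 5 were higher averaged (median log2 0.40), 7 after sham surgery (0.81) and 4 after MI (0.24). Their sum was 2864, 2293 and 10564.5 in NAC sham 1, 2 and 3, and 1701 to 3398 in saline sham, where Isl1 was at 0. It was 7295, 6263 and 3069 in NAC MI 1, 2 and 3, and 2510 to 4432 in saline MI. The part of these cells in the differences was not tested.

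After sham surgery 10 channel genes were wholly above and 3 wholly below saline, 13 of 75 beside 9.86% of all genes. After MI 6 were above and 8 below, 14 of 75 beside 20.3%. The median log2 difference of the 75 genes was 0.39 after sham surgery, 0.02 after MI and 0.20 averaged (55, 41 and 48 higher), against -0.02 over all genes in each. The median after MI was 0.33 without NAC MI 3, -0.07 without NAC MI 2, 0.17 in edgeR and 0.15 in DESeq2. The averaged median was 0.09 without NAC sham 3, and -0.01 with the title prefix as a block. The block value does not compare directly with the others. Among sham libraries, those with no prefix hold NAC only and R219 holds saline only, so they add nothing to its NAC difference. Its sham part rested on NAC sham 2 alone, against the saline libraries of R207. NAC sham 2 is the library with the most macrophage and least cardiomyocyte markers.

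Families differed in sign. Averaged over surgeries, all 6 tested Cacna1 genes (median log2 0.74), both Cacna2d genes (1.37), 5 of 6 sodium channel pores (0.47), 5 of 7 inward rectifiers (0.49) and 9 of 13 pores of the Kcna to Kcnv genes (0.34) were higher with NAC. Of 9 potassium channel partners 7 were lower (median -0.22). On the CPM scale the signs of these medians stayed, and with edgeR that of the potassium channel partners turned (0.02, against -0.04 in CPM). The count of higher Cacna1 and Cacna2d genes was the same without NAC sham 2, NAC MI 2 and saline sham 3.

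Length went along with the sign. Across 13452 tested protein-coding genes, the averaged NAC difference was larger in genes with more exon bases (Spearman rho 0.395), and across the 75 channel genes rho was 0.498. Both describe genes that share the same 12 libraries. Of 19 channel genes over 8 kb, 17 were higher with NAC (median log2 0.62), beside 75.1% of all such genes (median 0.19). Of 6 under 2 kb, 1 was higher (median -0.46), beside 23.3% of all (median -0.25). In between, 10 of 19 channel genes of 2 to 4 kb were higher (median 0.04, all genes -0.11) and 20 of 31 of 4 to 8 kb (median 0.32, all genes 0.02). Cacna1c (21191 bases of exon) and Cacna2d1 (12416) are long, and Kcna5 (2862) is short. Ttn, the giant sarcomere protein titin, had 17313, 40856 and 17389 in NAC MI, 4850, 5453 and 8435 in saline MI, 32859, 14709 and 44751 in NAC sham and 17318, 11420 and 3726 in saline sham, with no overlap after MI and overlap after sham surgery. In MI against sham the sign was opposite, with rho -0.370 over all genes and -0.154 over channel genes. The part of transcript length or RNA integrity in the differences was not tested.

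**Figure D4:**
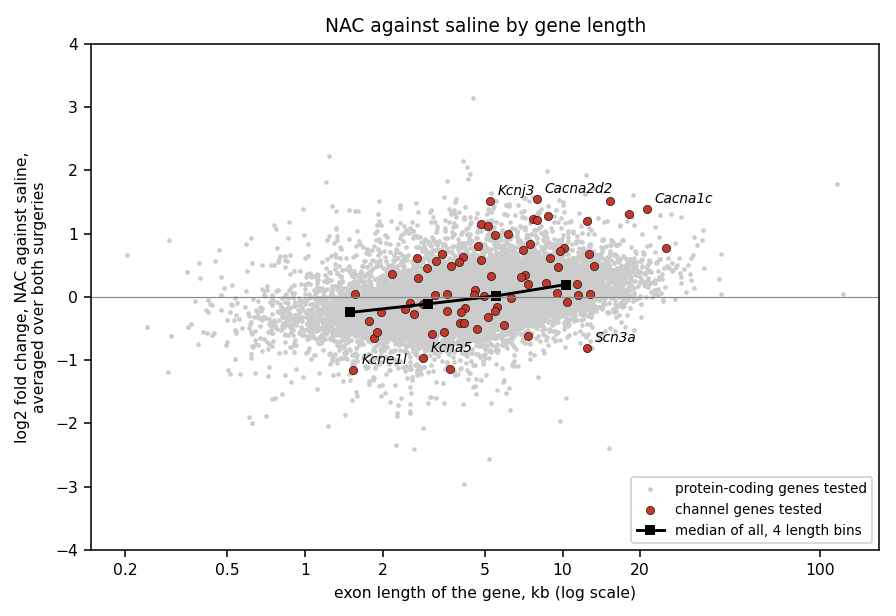
Log2 difference of NAC against saline averaged over both surgeries (vertical axis) by exon length in kb (log axis), for 13452 tested protein-coding genes (grey) and 75 channel genes (red). Black squares are medians of all genes in 4 length bins, which run from -0.25 under 2 kb to 0.19 over 8 kb.

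The title prefixes allow NAC to be set against saline within 3 of them. The median difference of the 75 channel genes was -0.01 within R207 (NAC sham 2 against saline sham 1 and 2, 37 higher), -0.17 within R230 (NAC MI 3 against saline MI 1 and 2, 29 higher) and 0.12 within R235 (NAC MI 1 and 2 against saline MI 3, 40 higher). Cacna2d2 was higher with NAC within each, by 2.16, 0.59 and 1.14 on the log2 scale, and Cacna1c by 0.23, 0.54 and 1.0. Kcna5 was lower within each, at -0.44, -1.71 and -0.60. NAC sham 1 and 3, the libraries with no prefix, have no saline library beside them, so the high levels there cannot be told apart from what their titles mark.

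Promoters were read for genes at both ends of the NAC comparison, though none passed. RefSeq promoters on GRCm38.p6, 250 bases before to 50 after a start site, were matched for 54 of the 75 tested channel genes (78 promoters). They are printed 5′ to 3′ for 4 genes of the higher side and for Kcna5 of the lower side. Capitals mark GC boxes (GGGCGG), bound by Sp factors, and the core of the antioxidant response element (TGACNNNGC), each on either strand; overlapping GC boxes run together. The windows are chr9:107399630-107399929 for Cacna2d2 and chr5:15934441-15934740 for Cacna2d1 on the plus strand, chr6:119196360-119196659 for the first of 3 listed for Cacna1c on the minus strand, chr11:111065914-111066213 for Kcnj2 on the plus strand and chr6:126535506-126535805 for Kcna5 on the minus strand.
Cacna2d2 promoter: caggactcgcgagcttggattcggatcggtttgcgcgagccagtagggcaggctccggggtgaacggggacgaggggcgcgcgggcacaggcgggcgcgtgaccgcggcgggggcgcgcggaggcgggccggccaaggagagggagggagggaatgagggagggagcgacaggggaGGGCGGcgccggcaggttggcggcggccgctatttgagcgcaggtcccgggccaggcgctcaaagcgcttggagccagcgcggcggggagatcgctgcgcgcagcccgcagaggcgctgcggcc
Cacna2d1 promoter: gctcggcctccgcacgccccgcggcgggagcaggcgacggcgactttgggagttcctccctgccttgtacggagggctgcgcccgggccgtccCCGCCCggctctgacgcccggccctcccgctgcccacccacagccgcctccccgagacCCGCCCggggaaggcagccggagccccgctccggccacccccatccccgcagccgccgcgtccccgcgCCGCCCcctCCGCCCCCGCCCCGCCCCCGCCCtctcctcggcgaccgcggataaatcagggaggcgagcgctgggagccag
Cacna1c promoter: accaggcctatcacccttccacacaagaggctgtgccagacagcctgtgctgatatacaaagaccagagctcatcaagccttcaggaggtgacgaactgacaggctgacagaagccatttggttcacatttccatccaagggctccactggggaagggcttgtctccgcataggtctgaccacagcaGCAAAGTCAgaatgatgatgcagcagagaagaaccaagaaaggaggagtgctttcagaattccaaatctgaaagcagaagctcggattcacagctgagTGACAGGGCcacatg
Kcnj2 promoter: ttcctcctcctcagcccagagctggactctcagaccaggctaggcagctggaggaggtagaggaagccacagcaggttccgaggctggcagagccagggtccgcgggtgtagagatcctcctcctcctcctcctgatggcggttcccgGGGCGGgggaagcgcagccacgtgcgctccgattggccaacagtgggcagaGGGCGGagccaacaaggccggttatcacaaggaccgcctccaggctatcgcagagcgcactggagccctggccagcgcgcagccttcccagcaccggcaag
Kcna5 promoter: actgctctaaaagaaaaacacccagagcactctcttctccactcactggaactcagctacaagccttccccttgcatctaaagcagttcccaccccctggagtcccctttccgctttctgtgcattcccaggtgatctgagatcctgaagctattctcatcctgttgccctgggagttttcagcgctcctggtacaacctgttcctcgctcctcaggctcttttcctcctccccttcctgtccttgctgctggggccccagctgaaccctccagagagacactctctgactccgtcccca
The Cacna2d1 window holds 7 GC boxes, Kcnj2 has 2 and Cacna2d2 has 1, and the printed Cacna1c and Kcna5 windows hold none. GC boxes are in 47.4% of the 78 channel promoters and 35.7% of all 32851. The antioxidant core occurs 2 times in the printed Cacna1c window and in none of the other 4 printed, nor in the other 2 Cacna1c windows, which hold 6 and 0 GC boxes. The core is in 12.8% of channel promoters and 12.4% of all. GATA motifs (GATAAG, 8.97% and 7.44%), the hypoxia response core (ACGTG, 17.9% and 19.6%) and TATA boxes (TATAAA, 5.13% and 13.6%) were also searched on both strands.

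The interaction of NAC and MI, which asks whether the response to MI differed with NAC, called 0 of 14996 genes in limma (0%) and 0 channel genes, with 2 of 75 channel genes under an unadjusted p of 0.05 (305 of all genes). Over all genes edgeR called 0 and DESeq2 called 1 (0.00667%), and neither called a channel gene. Those 2 were Kcnd3 and Scn2b. Kcnd3, the transient outward pore, had 19.7, 27.8 and 36.2 in NAC MI, 40.4, 21.5 and 45.8 in saline MI, 59.6, 50.8 and 60.6 in NAC sham and 24.6, 27.8 and 17.9 in saline sham. Its NAC sham libraries were above all others, and the interaction was -1.59 on the log2 scale (SE 0.57, adjusted p = 0.9999). Scn2b, a sodium channel beta subunit, had 20.6, 7.58 and 12.4 in NAC MI, 59.4, 23.8 and 28.3 in saline MI, 23.4, 14 and 29.4 in NAC sham and 9.42, 18.9 and 23.8 in saline sham, with an interaction of -1.75 (SE 0.79). The 5 largest in the other direction by p were Scn10a, Scn3b, Cacna1e, Kcnj12 and Kcnab1 (unadjusted p from 0.290 to 0.697). The median interaction of the 75 genes was -0.24, with 17 positive, against 0.0009 over all genes, and it ran from -0.62 without NAC sham 2 to -0.14 without NAC sham 3.

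**Figure D5:**
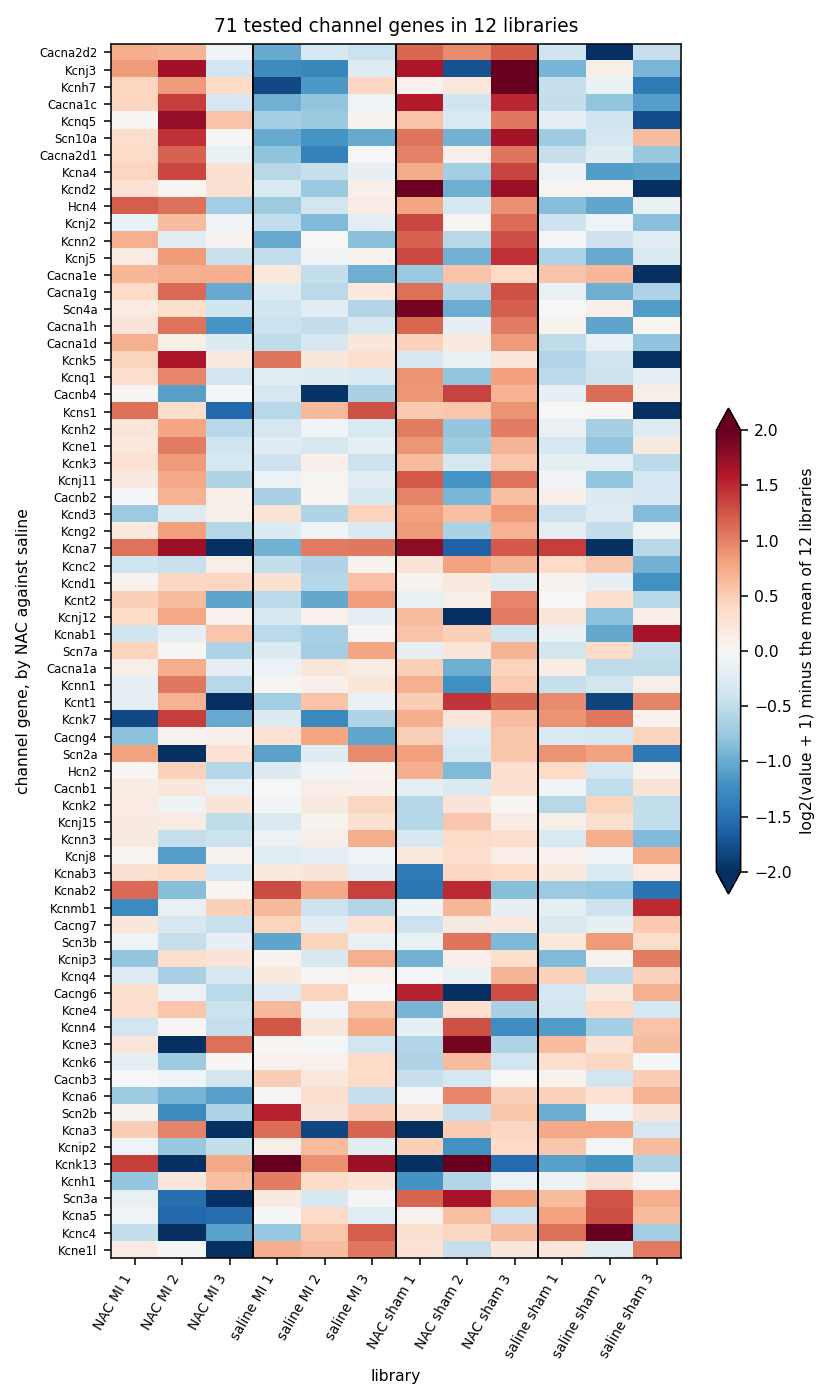
Log2(value + 1) of 71 of the 75 tested channel genes (rows) in 12 libraries (columns), each row centred on its mean and ordered by the NAC against saline difference; colours saturate at 2. NAC sham 1 and 3 and NAC MI 2 are red over much of the upper rows, and NAC sham 2 is pale or blue there.

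Other genes of cardiac excitability were read from lists. For MI averaged over treatments, limma called 2.74% of all genes, the share beside which the calls in these lists are read. Of 23 genes of the sarcoplasmic reticulum and calcium handling, 10 were higher after MI (averaged) and 1 rose, Casq1, the calsequestrin of skeletal muscle (log2 1.10, adjusted p = 0.0322). Of 7 sodium pump genes 5 were higher, 1 rose and 1 fell, the one that fell being Atp1b2, a beta subunit (log2 -0.86, adjusted p = 0.0310). Of 14 other cation and chloride channels 3 were higher, 0 rose and 1 fell. Of 15 transcription factors of the conduction system and channel gradients 7 were higher, and Tbx2, which represses working muscle genes, and Mef2c, a muscle activator, fell (log2 -0.88 and -0.71, adjusted p = 0.0231 and 0.0278). Of 6 gap junction genes 1 was higher, and of 18 anchoring and partner proteins 8 were higher, with no call in either list.

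With NAC, where limma called no gene at all, most members of these lists were on the higher side averaged over surgeries. All 7 sodium pump genes were higher (median log2 0.60), as were 5 of 6 gap junction genes (0.47), 12 of 14 other channels (0.21), 13 of 18 anchoring proteins (0.29), 15 of 23 calcium handling genes (0.23) and 9 of 15 transcription factors (0.05), against a median of -0.02 over all genes. Gja1, the main gap junction protein of the ventricle, had 4260, 9326 and 3405 in NAC MI, 2456, 1974 and 2746 in saline MI, 8103, 2525 and 8190 in NAC sham and 2380, 2296 and 2448 in saline sham. As for Cacna1c, NAC sham 1 and 3 were far above NAC sham 2. A pair of sarcomere genes, chosen after their values were seen, differed from each other. Tnnt2, cardiac troponin T, had 62158, 67866 and 60633 in NAC MI, 82131, 92705 and 63632 in saline MI, 57600, 18173 and 57440 in NAC sham and 58559, 30351 and 69664 in saline sham. Myh6, the alpha myosin heavy chain, had 128246, 181855 and 82625 in NAC MI, 81768, 114628 and 90445 in saline MI, 164616, 63504 and 169956 in NAC sham and 159332, 84669 and 62701 in saline sham. NAC sham 2 was the lowest library of all for Tnnt2 and the next to lowest for Myh6.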

How the data were processed

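The deposited table holds a normalized signal per gene and library, gene read counts that the authors divided by 1 size factor per library; whole reads were recovered for 100% of values within 0.01. Per the submitters' processing notes, STAR 2.7.10a, DESeq2 1.44.0 and build mm10 were used. The gene counter, annotation and strand setting are not given in the sources used here. Names, positions and exon lengths come from a GRCm38 GENCODE annotation (52079 of 52336 identifiers matched). Genes with a mean of at least 10 were tested as log2(value + 1) with limma 3.58.1 (R 4.3.3; 14996 genes, 4 group means, trended variance, 8 residual degrees of freedom), two-sided, adjusted by Benjamini-Hochberg over all genes, and called at an adjusted p under 0.05. Fold changes are on the log2(value + 1) scale: the added 1 understates changes between low values, while a library at or near 0 can make a difference of mean logs larger than the fold between group means. An exact permutation test of 3 against 3 cannot go below 0.1. edgeR 4.0.16 and DESeq2 1.42.0 on recovered reads, other scalings, filters, pseudocounts, quality weights, a prefix term and left-out libraries were alternatives. The method was checked on simulated data. The members and lists were chosen with earlier results of these data known. Named genes were those called, the 5 smallest p-values each way per comparison, and a set of cardiac channels; other genes are named where a count or level is itemised, after their values were seen. Some genes are not reported here by name, though the counts include them. The chi-square per gene between replicates was 27.0 to 281, above sampling noise in each pair. Intervals of counting error are not given, since the spread between libraries is larger.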

Additional observations from a re-analysis of the deposited data

How the results depend on the processing

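Counts of called channel genes moved with the setting, and the cause was not tested. DESeq2 called 1 channel gene for MI after saline, 2 for MI after NAC, 7 for MI averaged, 2 for NAC after sham surgery and 11 for NAC averaged (3.09%, 1.61%, 8.16%, 0.313% and 2.93% of all genes). With quality weights the counts were 7, 5, 15, 15, 8 (NAC after MI) and 28, beside 19.4%, 5.37%, 27.9%, 2.81%, 4.57% and 13.5% of all genes, so that for MI after saline and MI averaged the channel genes (9.33% and 20%) lay below that share. Without saline sham 3, NAC sham 2 and NAC MI 2 they were 5, 10, 8, 13 and 14 (none for NAC after MI), beside 12%, 3.83%, 14.6%, 2.79% and 2.19%. These libraries had the lowest quality weights, so leaving them out lowers the spread by the choice itself. For MI averaged, both log2(CPM + 1) and a pseudocount of 4 gave 2 (2.67%), beside 2.04% and 2.96% of all genes. For MI after saline a fit of only those libraries gave 2 (2.67%), beside 3.38%. Leaving out each library in turn gave 0 to 1 for MI after saline, 0 to 4 for MI averaged, 0 to 3 for NAC after sham surgery and 0 to 12 for NAC averaged. At the upper ends the shares of all genes were 2.17%, 10.4%, 0.533% and 1.67%. The 4 for MI averaged (5.33%) lay below that share. Without NAC sham 2 the NAC counts were the highest of these, and without saline sham 3 that of MI averaged.

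Of 1240 recomputed values of 58 named gene and comparison pairs, 1166 kept direction and side, 65 passed newly and 9 changed sign. Without saline sham 3, NAC sham 2 and NAC MI 2, Kcnip2 for NAC after sham was 0.19, and the interactions of Scn10a, Kcnj12 and Kcnab1 -0.64, -0.75 and -0.20. With quality weights the interactions of Scn10a and Kcnj12 were -0.24 and -0.0706. With each library left out in turn, Kcnip2 for NAC after sham ran from -0.78 to 0.0617 (without NAC sham 2), the Kcnj12 interaction from -0.43 (without NAC sham 2) to 1.09, and that of Kcnab1 from -0.41 (without saline sham 3) to 0.92. No paired analysis was possible because the labels give no replicate number shared between groups. The title prefix, which is no replicate number, was fitted as a block for NAC after MI and averaged. For NAC after MI 0 channel genes were called. The sham part of the averaged fit rested on NAC sham 2 as its only NAC library. Genes with few reads, such as Scn3a, Kcnk13 and Kcns1, are limited by depth.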
